A study of Mus musculus with 10 samples.

Results

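The set comprised 8 genes of antibody production and transport, namely Igha, Ighm, Igkc, Iglc1, Iglc2, Jchain, Mzb1 and Pigr, of 31053 genes in the count matrices. They were chosen by name, and their unique molecular identifier (UMI) counts were read in the cells that the authors kept and clustered from a pair of colonic crypt libraries, per cluster. These were 1132 cells of normal colonic crypts and 1933 cells of colonic crypts from mice given dextran sulfate sodium (DSS), of 25204 kept cells in all 10 libraries. Because these counts had already been seen when the genes were picked, the levels below describe the 2 libraries, and no test compares them.

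The series profiled mouse intestinal crypt cells and organoids by droplet single-cell RNA sequencing (10x, 3′ end). DSS was given in drinking water, followed by normal water, to injure the colonic epithelium. The methods give female mice of 8 weeks for the colitis model. Which of the study's strains gave the colonic libraries, whether any other agent was given and how many mice were pooled are not given in the sources used here. The other 8 libraries were small intestinal organoids, of which 3 were grown with EGF, Noggin and R-Spondin 1 (ENR-organoids) and 3 in an 8-component medium (Hyper-organoids) of EGF, EPZ6438, FGF2, GSK-3 Inhibitor XV, LDN193189, Pexmetinib, R-Spondin 1 conditioned medium and VPA. The remaining 2 (-VE-organoids) were grown in that medium without VPA and EPZ6438. Organoids hold epithelium only and served as the background for the immunoglobulin genes. With 1 colonic library per group, mouse, preparation and treatment cannot be told apart.

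An antibody is built from paired heavy and light chains, each with a variable part chosen by rearrangement in a B cell and a constant part that sets its class. When a B cell matures into a plasma cell it turns most of its protein synthesis over to secreted antibody, and in the gut wall that antibody is mainly IgA, joined into dimers by the J chain. The polymeric immunoglobulin receptor on the basal side of epithelial cells binds dimeric IgA and carries it to the lumen.

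Igha lies at chr12:113254830-113260236 and Ighm at chr12:113418558-113422730, both on the minus strand (GRCm38). They encode the constant parts of the IgA and IgM heavy chains. Igkc, the constant part of the kappa light chain, lies at chr6:70726435-70726966 on the plus strand. Iglc1 (chr16:19061618-19062071) and Iglc2 (chr16:19198396-19200351), on the minus strand, encode lambda constant parts. Jchain (chr5:88519809-88527891, minus strand) encodes the joining chain, Mzb1 (chr18:35647267-35649367, minus strand) a chaperone of the endoplasmic reticulum in antibody-secreting cells, and Pigr (chr1:130826684-130852249, plus strand) the epithelial receptor.

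The sequences below carry the identity of the cells in which most immunoglobulin UMIs lay. Each of 5 cells of the DSS library had a different leading kappa variable segment, given here as the last coding bases of the germline segment in the GENCODE annotation of GRCm38, 5′ to 3′. Capitals mark the conserved stretch that encodes an aromatic residue, a second aromatic residue and a cysteine, after which the part that contacts antigen begins.

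Igkv1-122 (cell 1, chr6:68016718-68017488, plus strand): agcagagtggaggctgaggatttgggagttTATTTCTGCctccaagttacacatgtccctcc
Igkv8-27 (cell 2, chr6:70171809-70172270, minus strand): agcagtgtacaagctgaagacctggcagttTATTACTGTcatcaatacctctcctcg
Igkv17-121 (cell 3, chr6:68036812-68037318, plus strand): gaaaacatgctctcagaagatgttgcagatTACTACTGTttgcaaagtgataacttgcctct
Igkv4-57-1 (cell 4, chr6:69544359-69544907, minus strand): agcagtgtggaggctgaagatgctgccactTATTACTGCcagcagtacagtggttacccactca
Igkv12-46 (cell 5, chr6:69764523-69765022, minus strand): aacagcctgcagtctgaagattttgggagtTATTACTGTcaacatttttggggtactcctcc

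The transcripts of these 5 kappa segments were 51.7% to 61.2% identical over 10 pairs. The lambda constant genes were closer. The next set shows the last 60 coding bases of 3 lambda constant genes, with capitals at the 13 positions that differ among them, because these bases bear on how lambda UMIs were divided.

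Iglc1 (chr16:19061618-19062071, minus strand): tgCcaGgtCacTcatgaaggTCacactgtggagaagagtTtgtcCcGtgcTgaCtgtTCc
Iglc2 (chr16:19198396-19200351, minus strand): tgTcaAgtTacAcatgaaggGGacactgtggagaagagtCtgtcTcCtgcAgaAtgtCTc
Iglc3 (chr16:19065230-19065681, minus strand): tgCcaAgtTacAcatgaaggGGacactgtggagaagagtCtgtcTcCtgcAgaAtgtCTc

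Iglc2 and Iglc3 differed at 1 of these 60 bases and were 96.2% identical over the coding sequence, whereas Iglc1 was 72.3% identical to Iglc2. UMI counts of Iglc2 are therefore uncertain against those of Iglc3, and less so against those of Iglc1.

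The kept colonic cells had a median of 18374.5 UMIs in the normal library and 16051 in the DSS library. Another 2495 and 2813 deposited barcodes, respectively, were not kept by the authors. The colonic libraries shared 42 barcodes, 2 of them among kept cells, and the number shared over all pairs of the 10 libraries ranged from 1 to 42. In 35 of the 42, the smaller total was under 2% of the larger, at 0.914% to 1.73%. This touches the immunoglobulin counts, because the only immunoglobulin-rich barcode of the normal library carried the barcode of a DSS plasma-like cell and 1.23% of its UMI total. It was not among the kept cells, over which the values below were computed. Over all deposited barcodes the summed immunoglobulin level of the libraries differed by 6.62 on the log2 scale, and by 7.08 without the shared barcodes. The latter setting also dropped that DSS plasma-like cell, with 40314 immunoglobulin UMIs, so it does not show the effect of the normal barcode alone.

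Immunoglobulin transcripts were far more abundant in the DSS library than in the normal library, and almost all of them lay in 5 cells. Summed over kept cells, the 5 immunoglobulin constant genes reached 384 UMIs in the normal library (19.3 counts per 1000000 UMIs, CPM, 95% Poisson interval 17.4 to 21.3) and 122013 UMIs in the DSS library (3766 CPM, 3745 to 3787). Intervals here and below cover counting error only. The members follow by role, heavy chains first.

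Igha had 29 UMIs in the normal library (1.46 CPM) and 30347 in the DSS library (937 CPM), a 643-fold difference (448 to 960). Ighm differed far less, with 174 UMIs (8.74 CPM) and 770 UMIs (23.8 CPM), a 2.72-fold difference (2.30 to 3.22). Igha thus differed far more than Ighm, of whose UMIs 128 and 181, respectively, lay in a T-cell-like cluster described below.

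Igkc went from 163 UMIs (8.19 CPM) to 90176 UMIs (2783 CPM), 340-fold higher in the DSS library (292 to 399). Iglc1 had 1 UMI in the normal library and 267 in the DSS library (8.24 CPM), a ratio of 164 with a wide interval of 29.2 to 6504. Iglc2 had 17 UMIs (0.854 CPM) and 453 UMIs (14.0 CPM), a 16.4-fold difference (10.1 to 28.4). Kappa thus outnumbered both lambda genes together in each library, most clearly after DSS.

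Jchain had 1 UMI in the normal library and 10200 in the DSS library (315 CPM), a ratio of 6268 with an interval of 1125 to 247578. Mzb1 had 25 UMIs (1.26 CPM) and 595 UMIs (18.4 CPM), a 14.6-fold difference (9.81 to 22.8). Pigr, the epithelial member, had 39672 UMIs (1993 CPM) and 66849 UMIs (2063 CPM), a 1.04-fold difference (1.02 to 1.05), and was the only member that did not differ 2-fold.

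On the log2 scale with 1 CPM added, 7 of the 8 members were at least 2-fold higher in the DSS library, against 3.55% of the 12440 genes of at least 1 CPM in either library, and 0 were at least 2-fold lower, against 1.53%. The members' median log2 difference was 3.12 and that of all genes 0.03. The 8 genes were picked with these counts known, so nothing is read from that share. In the epithelial clusters the same shares over 11866 genes were 2.53% higher and 1.72% lower, and 6 of the 7 members measured there were higher. These clusters held plasma-like cell 2.

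**Figure D1:**
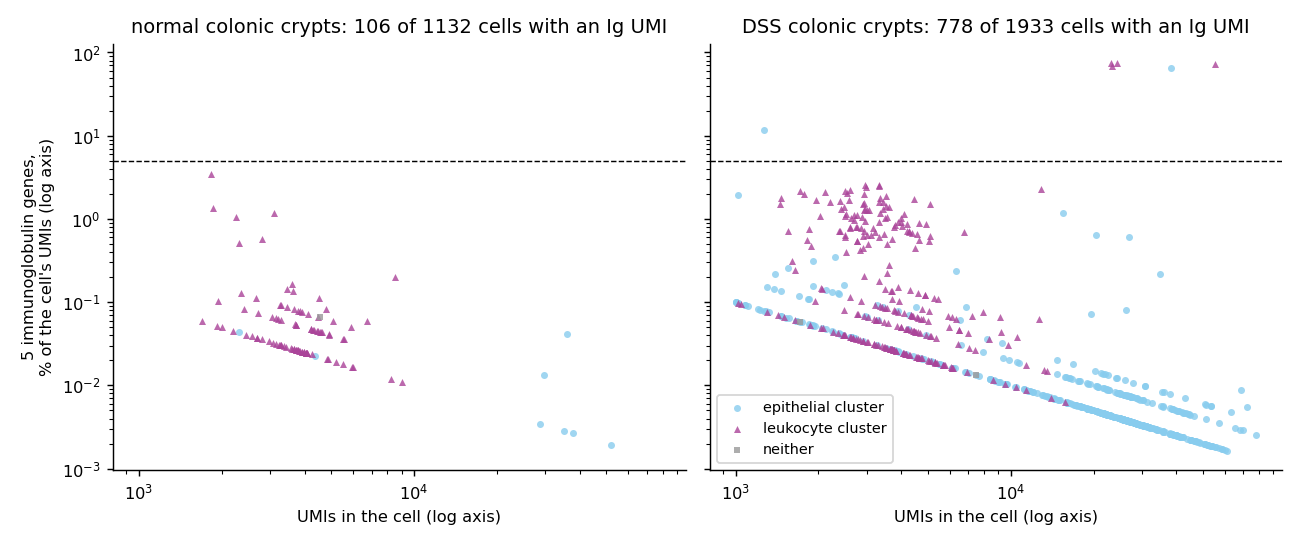
Each point is a kept cell with at least 1 UMI of the 5 immunoglobulin constant genes, by its UMI total (horizontal, log axis) and the percentage of its UMIs that came from those genes (vertical, log axis). The dashed line marks 5%, above which 6 cells of the DSS library and 0 of the normal library lie; 5 of the 6 sit between 65.9% and 74.0%, and the diagonal bands are cells with 1, 2 or more immunoglobulin UMIs.

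Cells in which the 5 immunoglobulin genes gave at least 5% of UMIs are called Ig-rich. There were 6 among 1933 kept DSS cells (0.310%, Clopper-Pearson 95% interval 0.114% to 0.674%) and 0 among 1132 normal cells, which allows a share of up to 0.325%. With 1 library a group the shares are not compared by a test. They depend on the cut, since at 1% they were 2.85% (2.15% to 3.69%) in the DSS library and 0.353% (0.0964% to 0.902%) in the normal library. Chosen instead by UMIs of at least 3 of 7 plasma cell markers (Tnfrsf17, Derl3, Irf4, Pou2af1, Cd79a, Eaf2 and Prdm1, of which Cd79a is also a B cell gene), 13 DSS cells (0.673%) and 0 normal cells were counted, of which 9 lay in cluster 8 and 5 were Ig-rich. Over all deposited barcodes, the Ig-rich share was 0.548% (DSS) and 0.0276% (normal). In 5 of the 6 the immunoglobulin share was over 20%, while the other had 11.7%. These 5 cells held 98.6% of the DSS library's Igha UMIs, 95.8% of Igkc, 98.0% of Jchain and 68.1% of Mzb1. They held 47.9% of Iglc1, 37.7% of Iglc2 and 1.43% of Ighm.

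The 5 cells carried UMIs of 12 to 15 of the 15 plasma cell markers (Xbp1, Prdm1, Irf4, Tnfrsf17 and others) and of 2 to 5 of the 12 B cell markers, and are called plasma-like cells. The authors' clustering placed 4 of them in cluster 8, whose other cells were B-cell-like, and 1 in cluster 5, which was epithelial with Muc2 among its leading genes. Their totals were 55102, 38306, 24359, 23256 and 23147 UMIs, of which immunoglobulin took 73.2%, 65.9%, 73.8%, 68.3% and 74.0%. Each therefore held more UMIs than the median kept cell of the library, and mitochondrial genes took only 1.13% to 2.85% of them.

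Igha counts in plasma-like cells 1 to 5 were 8564, 5960, 4846, 4283 and 6277 UMIs. Igkc counts were 31743, 19200, 12996, 11551 and 10859 UMIs. Every one of the 5 was thus an IgA kappa cell, with kappa making up at least 98.8% of light chain constant UMIs and Igha at least 99.7% of heavy chain constant UMIs. Heavy chain UMIs per light chain UMI ran from 0.270 in cell 1 to 0.578 in cell 5.

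Jchain counts were 3425, 1980, 1491, 2233 and 872 UMIs, or 8.03 to 19.3 per 100 Igkc UMIs. Mzb1 counts were 143, 73, 20, 36 and 133 UMIs. The order of the cells by Mzb1 was not their order by Jchain, since cell 5 was the lowest for Jchain and close to the highest for Mzb1.

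Lambda counts were low beside these. Iglc1 gave 2, 36, 77, 10 and 3 UMIs, and Iglc2 gave 5, 64, 61, 40 and 1. The lambda variable gene Iglv1 gave more in every cell but cell 4, with 211, 691, 146, 6 and 67 UMIs, although kappa was the light chain in all 5. The source of the Iglv1 UMIs was not tested.

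Ighm was absent from 4 of the 5 cells and had 11 UMIs in cell 4. Cell 3 alone held UMIs of a further class, 16 of Ighg2b. Pigr was at 0 in 4 cells and at 1 UMI in cell 2, which the authors' clustering had put among epithelial cells. The 5 cells carried 3 to 5 of the 8 epithelial markers, with 3 in cell 2.

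**Figure D2:**
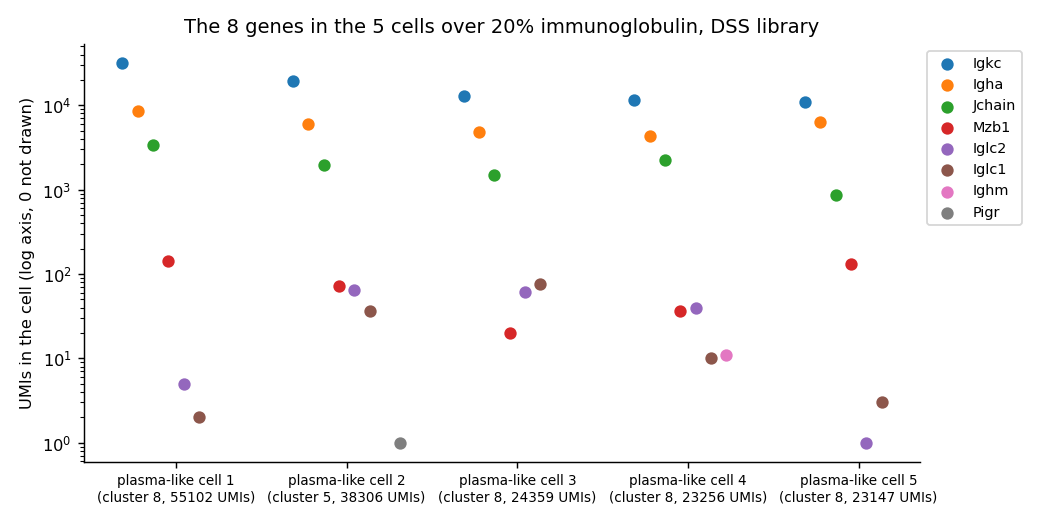
UMI counts of the 8 genes (vertical, log axis, zeros not drawn) in the 5 plasma-like cells of the DSS library, ordered by UMI total. Igkc, Igha and Jchain lie in that order in every cell, from 10859 to 31743 for Igkc down to 872 to 3425 for Jchain, and Pigr appears once, at 1 UMI.

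Variable segments set the 5 cells apart. Of the kappa segment UMIs, Igkv1-122 took 36 of 36 in cell 1, Igkv8-27 12 of 13 in cell 2 and Igkv17-121 20 of 21 in cell 3. Igkv4-57-1 took 5 of 6 in cell 4 and Igkv12-46 5 of 5 in cell 5. No leading kappa segment was shared between cells.

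Heavy chain segments were counted less often, with 4 to 9 UMIs a cell. They were led by Ighv1-50 (7 of 8 UMIs), Ighv5-17 (4 of 4), Ighv14-3 (9 of 9), Ighv1-55 (6 of 6) and Ighv1-19 (4 of 4). The 5 heavy segments were 55.7% to 86.5% identical over 10 pairs, closer than the kappa segments, so assignments among them are less certain. The germline segment is all that these 3′ counts can give, since the joined sequence was not analysed here.

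The sixth Ig-rich cell differed from the other 5. It had 1270 UMIs and 667 genes, lay in epithelial cluster 2, and held 33 Igha, 115 Igkc and 19 Jchain UMIs but 0 of Mzb1. It carried 2 plasma cell markers, 0 B cell markers and 3 of 8 epithelial markers. Its 16.5 Jchain UMIs per 100 of Igkc lay inside the range of the plasma-like cells.

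Ranked by fold in the 6 Ig-rich cells over all other kept colonic cells, with immunoglobulin chains left out, the 15 leading genes began with Jchain and Mzb1. The cells were chosen by their immunoglobulin counts, so these values are a description. For these folds, and those of gene lists in the Ig-rich cells, levels were scaled to UMIs outside immunoglobulin chains. Scaled to all UMIs, of which immunoglobulin took 65.9% to 74.0% in the plasma-like cells, the folds would be smaller. Derl3, which helps move misfolded protein out of the endoplasmic reticulum, had 43 UMIs in 5 of the 6 cells and was 509-fold higher. Ccr10, the receptor for the epithelial chemokine Ccl28, had 26 UMIs in 4 cells against 7 in all other cells. Tnfrsf17, the survival receptor BCMA, had 14 UMIs in 4 cells and 0 elsewhere. Eaf2 (482-fold), Cacna1s (413-fold) and Slamf7 (137-fold) ranked with them, as did Slpi, a secreted protease inhibitor with 426 UMIs (118-fold). The other 6 were Prg2 (22 UMIs in 4 cells, 0 elsewhere), Oosp1 (9 in 2 cells), Glipr1 (54 in 5 cells), Fcrla (13 in 5 cells), Vpreb3 (19 in 3 cells) and a, the agouti gene (5 in 3 cells).

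Of 16 secretory pathway genes, 15 were at least 2-fold higher in the Ig-rich cells, 14 of them on 20 or more UMIs, against 13.7% of 12234 genes. Xbp1, the factor that drives the secretory programme, was 43.8-fold higher on 350 UMIs. Edem1 (48.8-fold), Txndc5 (31.4-fold) and Creld2 (29.4-fold), which act in protein folding and quality control, had 124 to 181 UMIs each. The chaperone cofactor Dnajb9 was 1.77-fold higher on 9 UMIs. Scaled to all UMIs, fewer of the 16 would pass 2-fold and Dnajb9 would not be higher. All 15 plasma cell markers were at least 2-fold higher, 9 of them on 20 or more UMIs, while 5 of the 12 B cell markers were higher and 4 lower.

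Of 15 IgA homing, survival and induction genes, 7 were higher and 4 lower, against 13.7% of all genes higher and 65.0% lower, and 8 of the 15 were detected in these cells. Ccr10 was the only higher gene with 20 or more UMIs. Itgb7, a subunit of the gut-homing integrin, had 11 UMIs, and Tnfrsf13b, the receptor TACI, had 9. Of 12 genes known to control Pigr, 3 were higher and 4 lower, none of the higher genes on 20 or more UMIs, so the share lower lay under that of all genes. The shares of the last 2 lists rest on few UMIs.

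The same lists were compared between the libraries over all kept cells. With 1 CPM added, as above, 3.55% of all genes were at least 2-fold higher in the DSS library and 1.53% lower. Among secretory genes 1 of 16, Derl3, was higher (73 against 11 UMIs, 4.08-fold, 2.15 to 8.53) and 0 were lower, with a median log2 difference of -0.09 against 0.03 for all genes. Of the 73 Derl3 UMIs, 43 lay in the 6 Ig-rich cells. Of 10 homing genes measured, Tnfrsf13c, the BAFF receptor of B cells, was higher (81 against 5 UMIs) and Ccr9, a gut-homing chemokine receptor, lower (23 against 53 UMIs). Tnfrsf13b (48 against 5 UMIs) and Cxcr4 (163 against 41) were 5.90-fold (2.36 to 19.0) and 2.44-fold (1.73 to 3.53) higher by plain ratio, but at 0.99 and 0.98 on the log2 scale with 1 CPM added fell just short. Ccl28, the epithelial chemokine that attracts IgA cells, was 1.58-fold higher (1.46 to 1.71), short of 2-fold. Of the 12 Pigr regulators 0 moved 2-fold in either direction over all kept cells. Within the epithelial clusters 0 of the 12 were at least 2-fold higher and 1 was lower, against 2.53% and 1.72% of all genes there.

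The other 8 immunoglobulin constant genes showed which classes were present. Ighd, the IgD chain of mature B cells, had 13 UMIs in the normal library and 163 in the DSS library. Ighg2b had 0 and 134 UMIs, and its DSS level was 27.4-fold that of an assumed floor of 3 counts in the normal library, which is not a lower bound. Of the 134 UMIs, 116 lay in 6 cells with UMIs of at least 4 of the 12 B cell markers, and 16 in plasma-like cell 3. Ighg1 had 0 and 15 UMIs and Ighg2c 0 and 2, while Ighe, Ighg3 and Iglc4 were not counted in either library. Iglc3, the gene almost identical to Iglc2, had 12 and 154 UMIs.

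Cluster 8 held most of the remaining immunoglobulin UMIs. Its leading genes included Cd79a, Ebf1, Fcmr, Ighd and Ms4a1, and it is called B-cell-like. It comprised 7 normal cells and, without the 4 plasma-like cells, 105 DSS cells. In these 105 cells Igkc had 2710 UMIs (in 98 cells), Ighm 514 (94 cells), Iglc2 214 (66 cells) and Iglc1 88 (16 cells). Igha had 42 UMIs in 10 cells and Jchain 22 UMIs in 5 cells. The B-cell-like cells were thus mainly IgM kappa, with more kappa than lambda UMIs in 96 cells and the reverse in 4.

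Mzb1 was read in 66 of the 105 cells, with 144 UMIs in all and a highest value of 19. Pigr was read in 30 of them, with 41 UMIs. The 7 normal cells had 144 Igkc, 32 Ighm, 17 Iglc2 and 24 Mzb1 UMIs, and neither Igha nor Jchain. Of their 24 Mzb1 UMIs, 22 lay in 1 cell. Leaving out the whole of cluster 8 lowered the log2 difference of the summed immunoglobulin level between the libraries from 7.54 to 6.33, leaving out the 5 plasma-like cells lowered it to 3.06, and leaving out both lowered it to 2.49.

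B cell marker genes were also read in a few cells of epithelial clusters. Of cells with UMIs of at least 4 of the 12 B cell markers, a cut set after seeing the data, 4 in the DSS library and 1 in the normal library were in such clusters. Of these 5, 3 carried 6 to 8 of the 8 epithelial markers, among them the normal cell, which had 166 Pigr UMIs beside 4 B cell markers. These 3 are not called B cells here. The others, a pair in DSS cluster 13, carried 11 and 8 of the 12 B cell markers and 8 or 9 plasma cell markers. Each had 3 of the 8 epithelial markers and no Pigr. They held 159 and 116 Igkc, 40 and 54 Ighg2b, 25 and 25 Jchain, and 10 and 13 Mzb1 UMIs. By these markers the pair was B-lineage-like, and its identity was not tested. The cell in DSS cluster 4 held 64 Iglc2, 12 Iglc1, 16 Mzb1 and 8 Ighg2b UMIs with 0 of Igkc, together with 47 Pigr UMIs and all 8 epithelial markers. Their Igha counts were 5 and 0 in the pair and 0 in the cell of cluster 4, unlike those of the IgA cells above.

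Outside all of these cells, immunoglobulin UMIs were spread thinly over the DSS clusters of at least 20 cells. Without Ig-rich and B marker cells, the epithelial clusters held 910 immunoglobulin UMIs in 1475 DSS cells (30.0 CPM, 28.1 to 32.0) and 10 in 906 normal cells (0.525 CPM, 0.252 to 0.965). With 1 CPM added, the log2 difference was 4.35, and it was 4.25 when B marker cells stayed in. A single DSS cell of cluster 2, with 27016 UMIs, held 162 of the 910, and without it the level was 24.7 CPM. That cell had 139 Igkc, 23 Igha, 16 Jchain and 52 Pigr UMIs and 0 B cell markers.

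An Igha UMI was read in 14.0% of Ig-poor DSS epithelial cells (207 of 1479) and 0.221% of normal ones (2 of 907), at median totals of 20991 and 21938 UMIs. When each cell was thinned to 5000 UMIs, leaving out 310 and 156 shallower cells, the shares were 4.36% (51 of 1169, 3.27% to 5.70%) and 0.133% (1 of 751, 0.00337% to 0.740%). Igkc was read in 8.64% and 0.133% of thinned cells, and Jchain in 1.54% and 0. Epithelial cells are not known to make antibody, so these shares serve as the background against which a share in another cell type is read. Free RNA and cells caught in pairs were not told apart here.

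In the DSS library this background was present in every cluster of at least 20 cells. Over 13 epithelial clusters of at least 20 cells, Igha ranged from 0.0952 UMIs a cell in cluster 22 to 0.367 in cluster 20, with none at 0. Cluster 22 also had myeloid genes among its leading genes, as described for Pigr, and the next lowest was cluster 6 (0.108). Igkc ranged from 0.175 to 1.23 UMIs a cell, highest in clusters 20 (1.23, 0.868 to 1.70) and 2 (1.08, 0.932 to 1.25). Cluster 2 fell to 0.253 without its single high cell, whereas cluster 20 stayed at 1.00. Over 5 leukocyte clusters Igkc was 0.152 to 0.450 UMIs a cell, from slightly under the lowest epithelial cluster to well inside the epithelial range. In the normal library 7 of 9 epithelial clusters had no Igha UMI and 6 of 9 no Igkc UMI.

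As CPM the clusters differed more, from 5.05 to 42.5 CPM for Igha in the 13 epithelial clusters (8.40-fold, against 3.85-fold per cell). Their median totals ran from 1570 to 25646 UMIs, and the same number of UMIs a cell gives a higher CPM in a shallow cell.

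The make-up of the background is given beside that of the plasma-like cells, and its source was not tested. Igha gave 20.9% of immunoglobulin UMIs in Ig-poor DSS epithelial cells (18.7% to 23.2%) and 29.5% once B marker cells were left out (26.5% to 32.5%), a step added after seeing the data. In the plasma-like cells Igha gave 25.7%, with a range of 21.2% to 36.6%, so the former value lay just under that range and the latter inside it. Jchain gave 12.5% of the sum of Jchain and Igkc in epithelial cells without B marker cells (10.2% to 15.2%) and 10.4% in the plasma-like cells. In the normal library the Igha share was 8.00% of 25 UMIs (0.984% to 26.0%), too few to set beside these values.

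**Figure D3:**
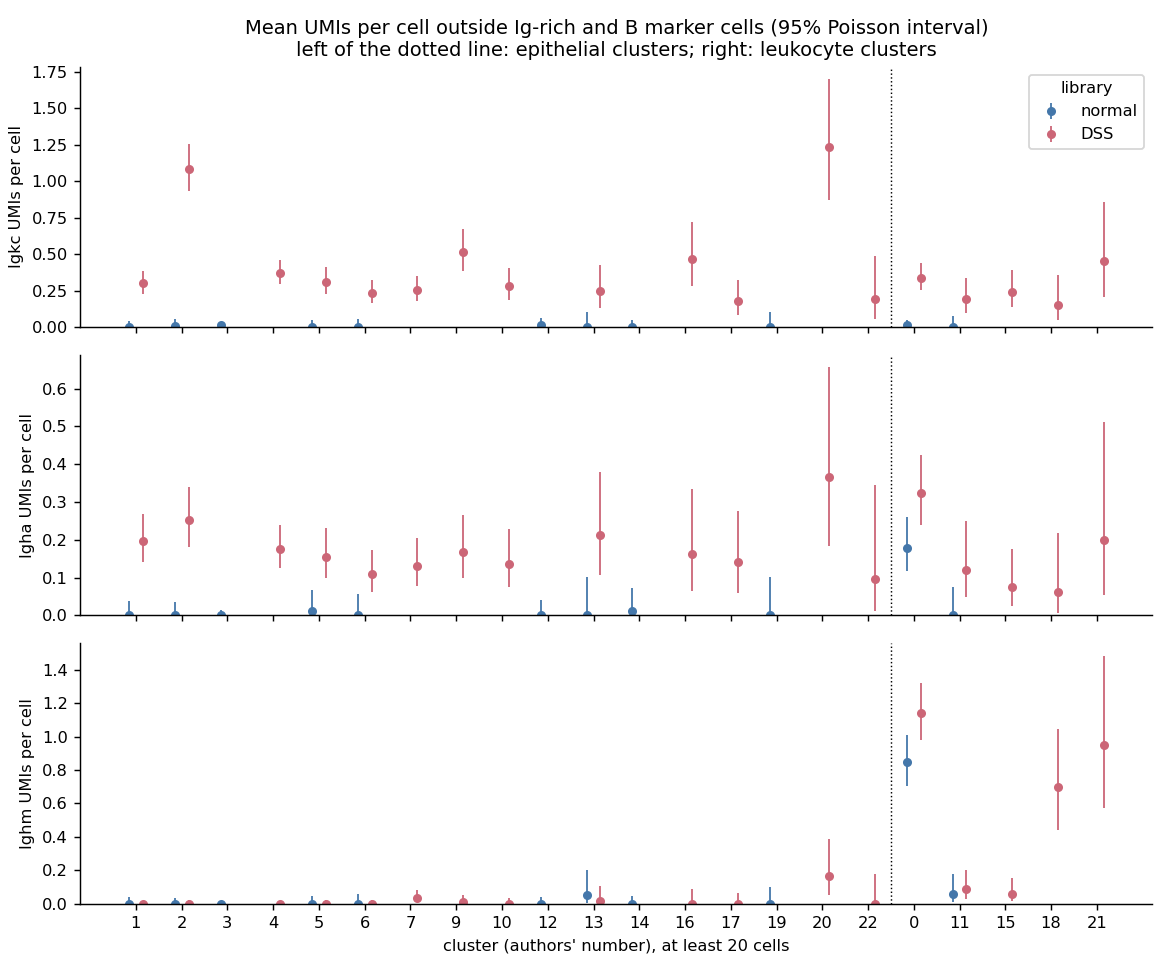
Mean UMIs a cell of Igkc (top), Igha (middle) and Ighm (bottom) with 95% Poisson intervals, in clusters of at least 20 cells of the normal (blue) and DSS (red) libraries, Ig-rich and B marker cells left out. Igkc and Igha are above 0 in every DSS cluster shown and near 0 in normal epithelial clusters, while Ighm lies mainly in leukocyte clusters 0, 18 and 21, with 0.848 UMIs a cell in normal cluster 0.

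Ighm did not follow this background. In cluster 0, a T-cell-like cluster led by Trbc1, Trbc2 and Cd3g, an Ighm UMI was read in 77 of 151 normal cells (51.0%, 42.7% to 59.2%) and 84 of 159 DSS cells (52.8%, 44.8% to 60.8%). It had 128 UMIs (229 CPM) and 181 UMIs (275 CPM), respectively, at median totals of 3693 and 3924 UMIs. In epithelial clusters Ighm had 6 and 12 UMIs in all. The shares of the libraries overlapped in their intervals, and both lay far above those of epithelial cells, which should lack the gene (0.331% and 0.473%).

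These transcripts came without a light chain. Of the Ighm-positive cells of cluster 0, 76 of 77 in the normal library and 69 of 84 in the DSS library had no kappa or lambda constant UMI. Cd79a, a subunit of the B cell receptor, had 0 and 2 UMIs in the cluster. No heavy chain variable segment was counted there, but nothing is read from that. Even the plasma-like cells gave only 4 to 9 such UMIs each, beside 4283 to 8564 of Igha, so few or none would be counted here in any case. Igha was read there in 24 normal cells (27 UMIs) and 36 DSS cells (51 UMIs), and 16 and 24 cells held both heavy chains. Of the 29 Igha UMIs of the normal library, 27 lay in this cluster.

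The other T-cell-like clusters differed among themselves. Ighm was read in 4.08% of normal and 6.90% of DSS cells of cluster 11 (led by Gzma and Gzmb), and in 21.2% of the 33 DSS cells of cluster 18 (8.98% to 38.9%). It was also read in 8 of 20 DSS cells of cluster 21, where the myeloid genes C1qa, Csf1r and Lyz2 led. Igkc had 2 UMIs in normal cluster 0 and 55 in DSS cluster 0, of which 19 lay in 1 cell. What the Ighm and Igha reads of cluster 0 derive from was not tested.

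Pigr separated epithelium from leukocytes in both libraries. It ran from 682 CPM (619 to 750) in cluster 12 to 2817 CPM (2740 to 2896) in cluster 14 over 9 normal epithelial clusters. In the DSS library it ran from 569 CPM (392 to 799) in cluster 22 to 2996 CPM (2931 to 3062) in cluster 10 over 13 epithelial clusters. In cluster 22 an Epcam UMI was read in 100% of cells and a Ptprc UMI in 4.76%. Of the markers, 6 of the 8 epithelial, 5 colonocyte and 4 myeloid ones were read in at least 25% of its cells. The myeloid genes S100a8, S100a9 and Lyz2 were among its leading genes. The leukocyte clusters had 35.6 and 55.4 CPM in the normal library and 42.7 to 184 CPM in the DSS library, below every epithelial cluster.

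In the order of levels, DSS cluster 10 and normal cluster 14 led and their counting intervals did not overlap. DSS clusters 1 (2713 CPM) and 7 (2702 CPM) followed normal cluster 14. Their intervals overlapped each other and that of normal cluster 14, so the order of these clusters is not settled. Normal clusters 2, 5, 3 and 19 lay between 1995 and 2111 CPM, each overlapping its neighbour. DSS clusters 5 and 4 (1938 and 1921 CPM) also overlapped. At the low end DSS cluster 16 (778 CPM) and normal cluster 12 overlapped.

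**Figure D4:**
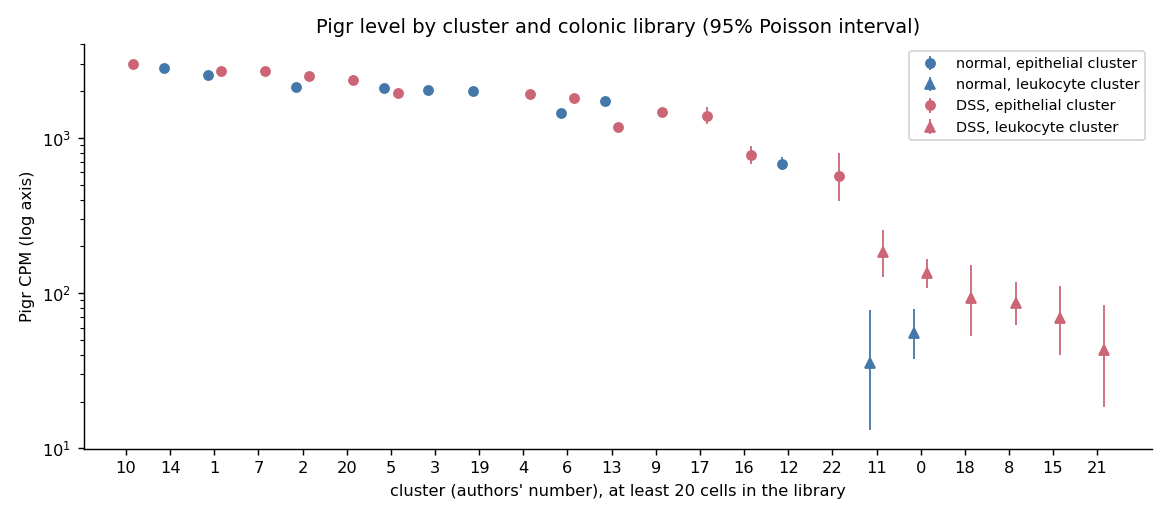
Pigr level (CPM, log axis) in each cluster of at least 20 cells, with 95% Poisson intervals, ordered by the highest level. Epithelial clusters (circles) lie between 569 and 2996 CPM and leukocyte clusters (triangles) between 35.6 and 184 CPM, in both the normal (blue) and the DSS (red) library.

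Over all epithelial clusters Pigr was at 2077 CPM in the normal and 2189 CPM in the DSS library, a log2 difference of 0.08 (0.06 to 0.09). The sign depended on the cluster. Among the 5 epithelial clusters with at least 20 cells in each library, Pigr was higher after DSS in clusters 6 (0.33), 2 (0.25) and 1 (0.09) and lower in clusters 5 (-0.10) and 13 (-0.57) on the log2 scale. Cluster 13 went from 1737 CPM in 36 cells to 1171 CPM in 54 cells. A Pigr UMI was read in all 36 normal cells but in 46 of the 54 DSS cells. The DSS cells there include the pair with B cell markers and no Pigr. The intervals of these log2 differences exclude 0 by counting error, but no spread between mice is available for either group.

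A Pigr UMI was read in 97.3% of normal and 98.5% of DSS epithelial cells thinned to 5000 UMIs. In leukocyte clusters, which should lack Pigr, the shares were 25% (6 of 24 cells) and 26.5% (22 of 83), with 195 and 358 shallower cells left out. Thinned to 2000 UMIs they were 9.27% of 205 and 22.2% of 410 leukocyte cells. Without thinning, a Pigr UMI was read in 96.8% and 96.6% of epithelial and in 16.4% and 36.1% of leukocyte cells, whose median totals were 3517 and 3521 UMIs.

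Across the 30 combinations of cluster and library with at least 20 cells, the genes whose log2 level was most like that of Pigr, of 12986 genes, were Rab25 (Pearson r = 0.98), Cdx1, Klf5, Tmem238 and Tstd1 (the last with r = 0.96). The points share libraries and depth, and include both epithelial and leukocyte clusters. For Jchain the most alike were Cd79a (r = 0.81), Tnfrsf17, Eaf2, Mzb1 and Cacna1s (r = 0.77), and 1 cluster carries these values, with 17036 CPM in DSS cluster 8 against 576 in the next.

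In the organoid libraries, grown from epithelium, the 5 immunoglobulin genes had 8 UMIs of 972020698 in 22139 cells. Igha and Iglc1 had 0, Ighm and Iglc2 1 each and Igkc 6. Jchain had 49 UMIs and Mzb1 76, whereas Pigr had 785078. Pigr was therefore the only member counted at depth across the culture conditions.

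Pigr was highest in ENR-organoids and lowest in Hyper-organoids, with no overlap between the groups. It was at 1132, 1037 and 991 CPM in ENR replicates 1 to 3 (1053 ± 71.9 CPM, SD, n = 3). It was at 791 and 771 CPM in the 2 -VE-organoid libraries (781 ± 13.9 CPM, SD, n = 2) and at 557, 682 and 641 CPM in Hyper-organoids (627 ± 63.8 CPM, SD, n = 3). Replicate 1 was at passage 1 or 2, replicate 2 at passage 6 or 7 and replicate 3 at passage 3, the last started from primary crypts, so replicates of a group differ in passage and origin. The labels do not say whether they came from separate animals, so p-values measure the spread between these libraries, which may be technical.

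Relative to ENR-organoids, Pigr in Hyper-organoids had a log2 fold change of -0.87 (SE 0.08, adjusted p = 4.67e-05, edgeR's quasi-likelihood test with Benjamini-Hochberg adjustment over 16037 genes). Relative to -VE-organoids the log2 fold change was -0.45 (SE 0.09, adjusted p = 0.00355, same edgeR test). Between -VE- and ENR-organoids it was -0.42 (SE 0.09, adjusted p = 0.0289), but leaving out any of the 5 libraries compared took the adjusted p above 0.05, to between 0.0601 and 0.191 in edgeR. None of the changes reached 2-fold. A gene was called at adjusted p below 0.05 and at least 2-fold, which 22.9%, 18.6% and 2.55% of genes met in these comparisons, respectively.

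The lower level in Hyper-organoids was present within the stem and transit amplifying classes. In the stem class (SC) Pigr was at 1115 ± 74.6 CPM in ENR-, 866 ± 31.7 CPM in -VE- and 739 ± 77.4 CPM in Hyper-organoids, and in the transit amplifying class (TA) at 951 ± 61.8, 712 ± 3.13 and 563 ± 61.3 CPM (SD, n = 3, 2 and 3). Against ENR-organoids the log2 fold change in Hyper-organoids was -0.70 in the stem class (SE 0.08, adjusted p = 0.000147, edgeR's quasi-likelihood test with Benjamini-Hochberg adjustment) and -0.86 in the transit amplifying class (SE 0.08, adjusted p = 4.62e-05, same edgeR test). Between -VE- and ENR-organoids the adjusted p was 0.093 and 0.0528 within these classes by edgeR. The class make-up itself differed, as the stem class held 9.75% to 14.7% of ENR and 40.0% to 44.1% of Hyper cells. The authors' EP class held 22.2% to 34.5% of ENR cells and 0.0852% to 0.107% of Hyper cells. Among classes of at least 20 cells in ENR-organoids, the authors' PC class was lowest, at 335 ± 32.9 CPM, and their EC and GC classes highest, at 1351 ± 204 and 1312 ± 169 CPM (SD, n = 3). The PC class was not lower in the Hyper libraries than that mean in 2 of 3, at 447, 372 and 307 CPM, but held only 10, 2 and 2 cells there.

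**Figure D5:**
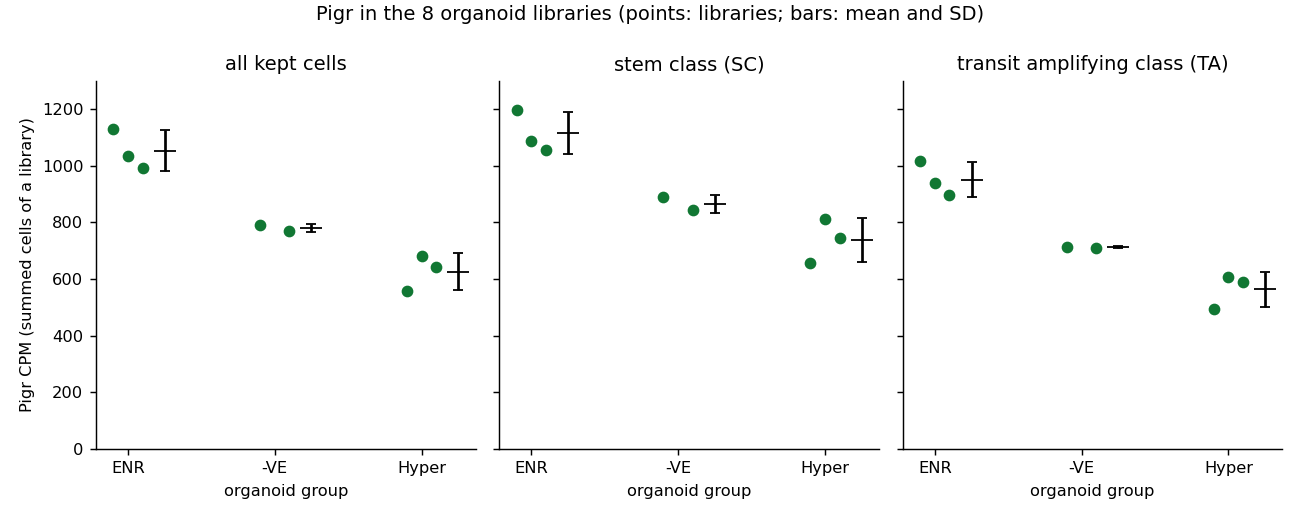
Pigr level (CPM) in each organoid library, for all kept cells (left), the stem class (middle) and the transit amplifying class (right). Points are libraries and bars give the mean and SD; in each panel every ENR library lies above every -VE library and every -VE library above every Hyper library.

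Mzb1, at a far lower level, moved the other way. It had 15 to 27 UMIs in the 3 Hyper libraries and 1 to 5 in the other 5. Its log2 fold change was 2.76 against ENR-organoids (SE 0.61, adjusted p = 0.00509, edgeR's quasi-likelihood test with Benjamini-Hochberg adjustment) and 3.41 against -VE-organoids (SE 0.72, adjusted p = 0.00565, same edgeR test). Without ENR replicate 1 the former was 3.93 and without ENR replicate 2 it was 2.29, while without -VE replicate 1 the latter was 4.55. The latter call was lost without -VE replicate 2 (adjusted p = 0.0631, edgeR), which leaves 1 library in that group, assumed to vary like the others. Mzb1 passed the count filter only through its counts in the Hyper libraries, so the filter favoured its call in advance. Without that filter the log2 fold changes were 2.76 and 3.42, on the same few UMIs. Pigr passed the filter in every group and was not called, so the 2 members are not set against each other. Between -VE- and ENR-organoids the adjusted p of Mzb1 was 0.713 by edgeR. The 5 immunoglobulin genes (0 to 3 UMIs a library) and Jchain (2 to 10) were below the count filter and were not tested.

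Genes around the set were called in the organoids as follows, by edgeR at adjusted p below 0.05 and at least 2-fold. Between Hyper- and ENR-organoids, 1 of 16 secretory genes rose, Fkbp11 (log2 fold change 1.33). Of 9 homing genes tested, Cxcr4 (4.52), Tgfb1 (3.80) and Itgb7 (2.14) rose, and Ccl28 (-1.13), Ccl25 (-2.01) and Ccr9 (-2.06) fell. Ccl28 and Ccl25 encode the epithelial chemokines that draw antibody-secreting cells and gut-homing lymphocytes. Of the 12 Pigr regulators Irf1 rose (1.50). The shares of secretory genes and of Pigr regulators called were thus below the 22.9% of all genes. The 6 homing genes called of 9 were above it, but the list was chosen with these data known. Against -VE-organoids, where 18.6% of all genes were called, Derl3 (-1.51), Ccl28 (-1.15) and Ccl25 (-1.11) fell and Cxcr4 (3.70) and Tgfb1 (3.59) rose in Hyper-organoids, and between -VE- and ENR-organoids 0 genes of the 3 lists were called.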

How the data were processed

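UMI counts per gene and cell were deposited by the authors as unnormalized Cell Ranger matrices (GRCm38/mm10), with 1 table naming the cells kept after filtering in Seurat 3.1.4 and their clusters. The processing notes name Cell Ranger 3.0.0 and the matrix headers 3.1.0. Kept cells had at least 501 genes and at most 20% mitochondrial UMIs, which is not the filter the study's methods state. The methods, written for 8 samples without naming them, give a minimum of 1500 genes, used here as an alternative, and a looser mitochondrial limit. How doublets were treated is not stated, and no caller was run here.

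Colonic counts were summed over kept cells and scaled to CPM (pseudocount 1 CPM for log2 differences), with exact Poisson and Clopper-Pearson intervals and no test. For gene folds in the Ig-rich cells over other cells, immunoglobulin chain UMIs were left out of the totals. A cluster was epithelial when at least 50% of its cells had an Epcam UMI and under 50% a Ptprc UMI. Organoid counts were summed per library and tested with edgeR 4.0.16 (glmQLFit and glmQLFTest, TMM, all 8 libraries, no block), with DESeq2 1.42.0 as an alternative, in R 4.3.3. Other steps used Python 3.11.15. On simulated counts for Hyper- against ENR-organoids, over 16037 genes, 75 of 100 genes changed 2-fold and 91 of 100 changed 4-fold were recovered, and 8 of 174 called genes had not been changed.

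All 8 members were named, with up to 5 genes most like Pigr and Jchain, the 15 genes leading the Ig-rich cells, and list genes past 2-fold. List genes named beyond this rule were picked after their values were seen. The members, lists and rules were chosen with earlier results of these data known. The result of 1 listed gene is not reported here.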

Additional observations from a re-analysis of the deposited data

Results flagged for a closer look

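Ig-rich barcodes also appeared among those the authors did not keep. The counts of Ig-rich kept cells leave them out, while the shares over all deposited barcodes include them. In the DSS library 20 of 2813 such barcodes were Ig-rich (0.711%, Clopper-Pearson 95% interval 0.435% to 1.10%), against 1 of 2495 in the normal library (0.0401%, 0.00101% to 0.223%), the barcode shared with DSS plasma-like cell 1. The 20 were small, with 532 to 5170 UMIs and a median of 733.5. Of them 17 had under 500 genes and 4 had over 20% mitochondrial UMIs. In the 18 with 3 or more Igha UMIs, Igha gave 13.6% to 23.5% of immunoglobulin UMIs, inside the range of the 5 plasma-like cells for 3 of the 18. Between 0 and 3 plasma cell markers were read in each. Another held 588 Igkc and 201 Ighg2c UMIs with no Igha, in 1101 UMIs in all. Whether these barcodes held cells, cell fragments or free RNA was not tested.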

How the results depend on the processing

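Of 101 recomputed values, 21 moved out of the counting interval of the value reported (stretched to take in the value where it lay outside), 1 lost its call and 2 changed sign. The log2 difference of the summed immunoglobulin level between the colonic libraries, 7.54, was 6.62 over all deposited barcodes, 7.08 over those without the shared barcodes, 4.49 as a mean of per-cell CPM and 9.14 in cells of at least 1500 genes. It was 6.33 without cluster 8, 3.06 without the 5 plasma-like cells and 2.49 without both. These last 3 settings and the one on shared barcodes were added after seeing the data. In Ig-poor epithelial cells the 4.25, itself under the interval of the plain ratio (4.47 to 5.67) because of the 1 CPM added, became 4.15 in cells of at least 1500 genes and 4.02 with an Ig-rich cut of 1%. It rose to 5.28 as a mean of per-cell CPM, 5.00 as UMIs per cell, 4.93 with 0.1 CPM added and 4.69 over all barcodes. Without B marker cells the DSS share of immunoglobulin from Igha became 29.5%. With a cut of 1%, Ig-rich shares were 0.353% (normal) and 2.85% (DSS). The epithelial Pigr difference, 0.08, was 0.27 over all barcodes, 0.12 as a mean of per-cell CPM and 0.032 as a mean over clusters. Thinned to 2000 UMIs, the share of cells with an Igha UMI was 0 and 2.48% and with a Pigr UMI 90.4% and 92.8% (normal and DSS). Without thinning the DSS shares were 14.0% and 96.6%.

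In the organoids, leaving out 1 library in turn gave Pigr log2 fold changes of -0.93 to -0.79 (Hyper against ENR), -0.51 to -0.37 (Hyper against -VE) and -0.45 to -0.39 (-VE against ENR). For Mzb1, -VE against ENR moved from -0.66 to 0.52 without ENR replicate 1 and to 0.11 without -VE replicate 2, over a range of -1.79 to 0.52. Hyper against ENR ranged from 2.29 to 3.93 and Hyper against -VE from 2.65 to 4.55. The lowest of the latter (adjusted p = 0.0631, edgeR) was without -VE replicate 2. With the replicate number as a block, Pigr was at -0.88, -0.46 and -0.42 in the 3 comparisons, and 3780, 3063 and 439 genes were called against 3675, 2985 and 409. Every one of the 8 libraries correlated best with its own number, but same-number correlations ran from 0.06 to 0.44 over 7 pairs. Library names, passage and origin go with the number, but the labels name no shared batch for it. Pairing by number is therefore possible and was kept as the block alternative, while the main tests leave it out. The count of genes called between -VE and ENR fell to between 96 and 286 when a library was left out, and the adjusted p of Pigr there ran from 0.000411 to 0.093 over the settings that kept every library (edgeR or DESeq2). The depth limits Jchain and Mzb1 in the organoids and all immunoglobulin genes in normal colon, where 1 to 174 UMIs were read per gene.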
